A study of Homo sapiens with 6 samples.

Results

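The 48 genes described here lie on human chromosome 2 and were picked by name, from ASXL2 and DNMT3A on the short arm to STK25 and HDLBP near the end of the long arm. They were proposed with earlier results of the same comparison in view, so their shift is given as a description and no test of it is made. All 48 were found in the table of 62700 genes, and all 48 passed the filter on low counts that left 24325 genes for testing. They stand for a small share of the 3971 genes of chromosome 2 in the table, of which 1496 were tested. From the first gene to the last they span 216 Mb (hg38).

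The libraries came from PC3, an established line grown from a bone metastasis of a prostate adenocarcinoma. In 3 libraries the cells carried an shRNA against TTC3, a ubiquitin ligase gene on chromosome 21 (genotype label TTC3 knockdown), and in 3 a control shRNA (shNC, genotype label WT). Total RNA was depleted of ribosomal RNA and made into strand-specific libraries, and the deposited values are estimated counts per gene. The labels give no shRNA sequence, number of hairpins, clone, time after infection or batch, and do not say whether replicates were separate cultures, so the p-values behind each call measure only the spread between these libraries.

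Genes that share a chromosome need not share a function, and the 48 include kinases, splicing factors, chaperones, metabolic enzymes and actin regulators. As background, the RNA level of many genes follows the number of copies of the gene, so a gain or loss of a chromosome shifts most of its genes by a similar modest factor, while single genes can depart from it through their own regulation. PC3 cells have a rearranged karyotype. DNA was not measured here, and in bulk RNA a change in the share of cells and a change in RNA per cell cannot be told apart.

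TTC3 was at 228, 183 and 178 CPM (counts scaled for library size, with TMM factors) in the TTC3 shRNA libraries, against 695, 684 and 680 CPM in the control libraries. The groups did not overlap, and the level with TTC3 shRNA was 28.6% of the control level (log2 fold change -1.81 ± 0.10, SE). The libraries held 143246356 to 155526861 counts. The epithelial keratin KRT8 averaged 159 CPM of the library total with TTC3 shRNA and 172 CPM with control shRNA, and the epithelial adhesion gene EPCAM 5.27 and 4.62 CPM, while the prostate markers KLK3 and KLK2 and the T cell marker CD3E were listed at 0 in all 6 libraries. PTPRC, the pan-leukocyte marker, averaged 0.00663 and 0.154 CPM, and the fibroblast marker DCN 0.0261 and 0.0304 CPM, in the TTC3 shRNA and control shRNA libraries.

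One library stood apart from its group in a way that touches the 48 genes. In TTC3 shRNA replicate 1, the difference from the control mean barely changed with transcript length over 9737 genes of the other chromosomes except chromosome 15, by -0.024 log2 for each doubling of length. In replicates 2 and 3 the change was -0.156 and -0.195. The rank correlation of the difference with GC content was -0.06 in replicate 1, 0.52 in replicate 2 and 0.53 in replicate 3, across genes that share a library and are not independent.

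The chromosome 2 genes were, as a group, modestly higher in TTC3 shRNA cells, and not evenly so. Their median log2 fold change of TTC3 shRNA over control shRNA was 0.27, a factor of 1.2, with quartiles of 0.05 and 0.45 and a range of -2.13 to 1.23. By edgeR's quasi-likelihood test with Benjamini-Hochberg adjustment over all tested genes (adjusted p below 0.05), 24 of the 48 were called higher, 6 lower and 18 neither. Over all tested genes 15.7% were called higher, 17.8% lower and 33.6% in either direction. Since the genes were chosen from this contrast, nothing is read from those shares. Leaving out control shRNA replicate 1, 2 or 3 gave 14, 13 and 13 genes called higher and 5 lower each time, and leaving out TTC3 shRNA replicate 1 gave 28 higher and 10 lower. In 28 genes all TTC3 shRNA libraries lay above all control libraries, and in 6 all lay below, where the shares over all tested genes were 23.3% and 27%.

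Of the 48 genes, 38 lay above 0.01, the median of the 15382 tested genes of other chromosomes that reached the level of the least counted of the 48. The 706 other chromosome 2 genes of at least 5 CPM had a median of 0.34, and 53.5% of them were called higher and 7.79% lower. The 10717 genes of other chromosomes at the same level had a median of 0.04, with 23.6% called higher and 18.6% lower. The interquartile range was 0.40 in the 48 genes, 0.52 in the other chromosome 2 genes and 0.54 in the genes of other chromosomes. The median of the 48 genes was above that of the other chromosomes. It was below the median of 0.31 over the 1016 other chromosome 2 genes that reached the level of the least counted of the 48, but not without TTC3 shRNA replicate 1 (0.28 against 0.27) or with the length trend removed (0.27 against 0.25).

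Among all chromosomes at 5 CPM, the median of chromosome 2 was the highest, at 0.33 over 753 genes. Chromosome 19 came next at 0.22, but its median was -0.02 in TTC3 shRNA replicate 1, 0.28 in replicate 2 and 0.33 in replicate 3. Chromosome 2 stood at 0.40, 0.29 and 0.27 in the same libraries. The opposite shift was seen on chromosome 15, whose median was -0.40 over 363 genes. The median of all tested genes was -0.02 with TMM scaling and -0.15 with library totals alone, where that of the 48 genes was 0.14 and 14 of them were called higher. Over all genes 3827 were called higher and 4338 lower with TMM scaling, and 2518 higher and 5356 lower with library totals. The 48 genes stood 0.26 above the median of other chromosomes under either scaling, a gap that scaling can hardly change because it moves all genes nearly alike.

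**Figure D1:**
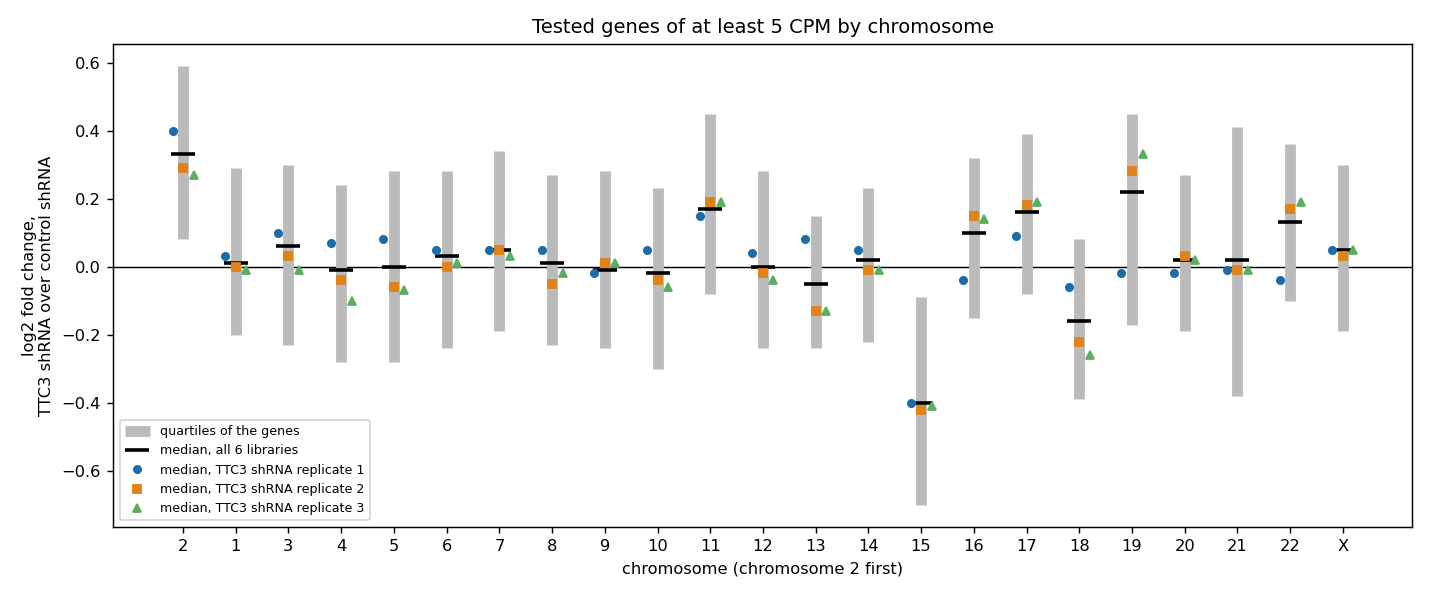
Log2 fold change of TTC3 shRNA over control shRNA for tested genes of at least 5 CPM, by chromosome, with chromosome 2 first. Grey bars span the quartiles of the genes, black lines mark the median from all 6 libraries, and symbols mark the median in each TTC3 shRNA library against the control mean; chromosome 2 is the highest at 0.33 and chromosome 15 the lowest at -0.40.

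The shift was present in each TTC3 shRNA library and differed in evenness between them. Against the control mean, the median difference of the 48 genes was 0.39 in replicate 1, 0.23 in replicate 2 and 0.25 in replicate 3. The number of genes above the control mean was 41, 32 and 31. Replicate 1 was the most even, with an interquartile range of 0.39, against 0.50 in each of the other libraries. This was not particular to the 48 genes. In genes of other chromosomes at 5 CPM the range was 0.40 in replicate 1, 0.65 in replicate 2 and 0.71 in replicate 3. Interquartile ranges of the 48 genes were 0.40, 0.40 and 0.43 with each library's length and GC trends removed (chosen after seeing the data). Without replicate 1 the median of the 48 genes was 0.28 and the interquartile range 0.51, with 32 genes above the median of other chromosomes.

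**Figure D2:**
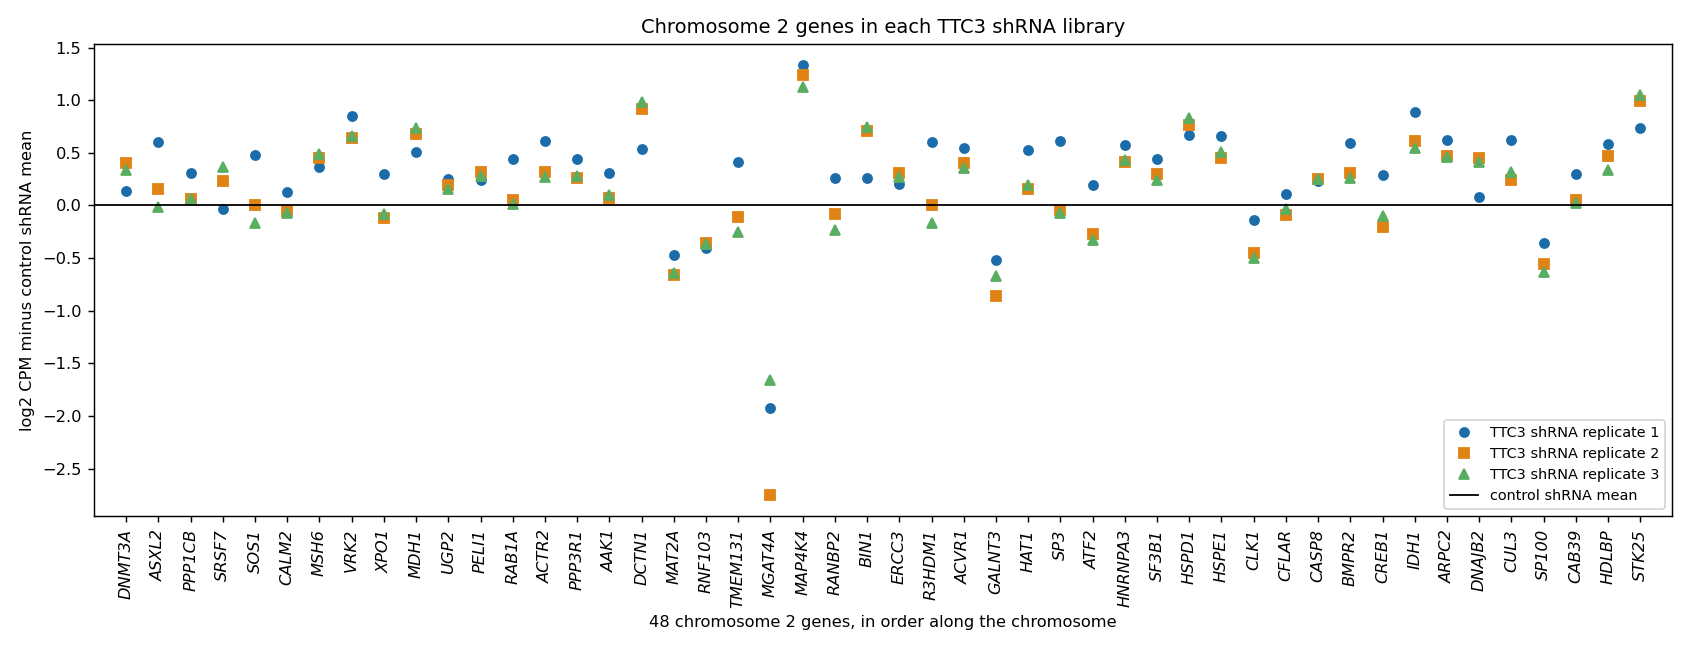
Log2 CPM of each TTC3 shRNA library minus the control shRNA mean for the 48 chromosome 2 genes in their order along the chromosome; the line at 0 is the control mean. MAP4K4 stands above and MGAT4A far below the others in all 3 libraries, and genes such as SP3, SOS1 and R3HDM1 are above the line in replicate 1 and at or below it in the other libraries.

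The 48 genes showed little trend with position, while the medians of all chromosome 2 genes of 5 CPM differed between windows. The shift varied with transcript length and base composition more in replicates 2 and 3 than in replicate 1. Across the 48 genes the rank correlation of the difference with position was 0.15 in replicate 1, 0.07 in replicate 2 and 0.06 in replicate 3. The 19 genes before the centromere (taken at 93 Mb) had a median of 0.20 and the 29 after it 0.30, while the other chromosome 2 genes of 5 CPM stood at 0.34 on either side. In windows of 20 Mb holding 20 to 96 genes, the median of chromosome 2 genes ran from 0.13 at 140 to 160 Mb to 0.68 in the window from 240 Mb. No window was below 0. The window medians lay between 0.28 and 0.50 in replicate 1, between 0.04 and 0.80 in replicate 2 and between 0.05 and 0.85 in replicate 3. Much of that wider range went with base composition. With each library's length and GC trends removed (chosen after seeing the data), the window medians ran from 0.26 to 0.49 in replicate 1. They then ran from 0.13 to 0.50 in replicate 2 and from 0.12 to 0.49 in replicate 3.

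The 16 genes with the shortest transcripts (592 to 2750 bases) had a median log2 fold change of 0.39, the 16 of middle length (2819 to 4619 bases) 0.29, and the 16 longest (4893 to 14672 bases) 0.16. In replicate 1 those medians were 0.48, 0.27 and 0.39. In replicate 2 they were 0.36, 0.29 and 0.03, and in replicate 3 0.40, 0.27 and -0.02. Across the 48 genes the rank correlation of the difference with GC content was 0.00 in replicate 1, 0.48 in replicate 2 and 0.47 in replicate 3. The median GC content of their transcripts was 42.7%, against 48.9% for the genes of other chromosomes at 5 CPM.

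Removing each library's trend with length, and then with GC content, left the median shift of the 48 genes in place. In that analysis, chosen after seeing the data, the median difference of the 48 genes was 0.40 in replicate 1, 0.29 in replicate 2 and 0.26 in replicate 3. The genes above 0 numbered 41, 39 and 39. The longest transcripts then stood at 0.40 in each of the 3 libraries. The shortest stood at 0.44, 0.23 and 0.18, further apart between libraries than before the correction (0.48, 0.36 and 0.40). The interquartile range of the 48 genes was 0.32, against 0.40 without the correction.

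**Figure D3:**
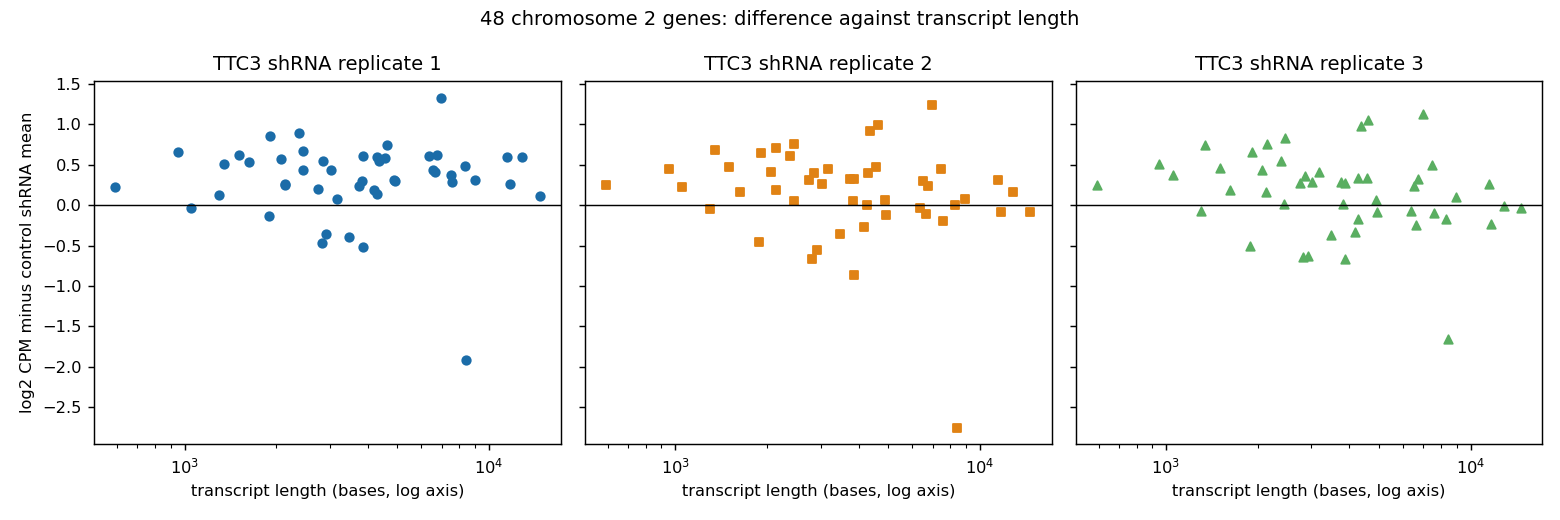
Difference of each TTC3 shRNA library from the control shRNA mean (log2 CPM) against transcript length (bases, log axis), with 1 point for each of the 48 genes and 1 panel for each library. The 16 longest genes centre on 0.39 in replicate 1, 0.03 in replicate 2 and -0.02 in replicate 3.

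Signalling genes were the most numerous group, and 6 of 10 rose and none fell (median log2 fold change 0.36). Among the other chromosome 2 genes at 5 CPM, 53.5% were called higher and 7.79% lower. Nothing about function is read from the counts in this group or the groups that follow. The largest increase among the 48 was that of MAP4K4 (ENSG00000071054.17, chr2:101696850-101894689), a Ste20-family kinase. It was at 1065.4, 1002.7 and 930 CPM in the TTC3 shRNA libraries, against 430, 422 and 422 CPM in the control libraries. It was higher in every TTC3 shRNA library by at least 1.13 log2, and its fold change of 1.23 ± 0.07 (SE) was the only one beyond the upper Tukey fence of the 48 genes, 1.04. Its 10 nearest expressed genes all lay above the median of other chromosomes, at a median of 0.42. The related kinases outside chromosome 2 were at -0.79 ± 0.13 (TNIK, on chromosome 3, called lower) and 0.21 ± 0.10 (MINK1, on chromosome 17, not called).

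STK25 (chr2:241492674-241509730), a germinal centre kinase, was at 121, 144 and 151 CPM with TTC3 shRNA, against 69.1, 75 and 73.7 CPM with control shRNA. All TTC3 shRNA libraries were above all control libraries, by 0.93 ± 0.09 log2. Its relatives STK24 and STK26, on chromosomes 13 and X, were at -0.04 and 0.11 and were not called. VRK2, a kinase of the vaccinia-related family, stood at 39.1, 33.8 and 34.3 CPM with TTC3 shRNA and 21.6, 22 and 21.5 CPM with control shRNA (0.72 ± 0.08), while VRK1 on chromosome 14 was at 0.03.

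The receptors for bone morphogenetic proteins rose by less. ACVR1, a type I receptor, averaged 33.1 CPM with TTC3 shRNA and 24.4 CPM with control shRNA (0.44 ± 0.08). BMPR2, the type II receptor, rose by 0.39 ± 0.09, and by more in replicate 1 (0.59) than in replicates 2 and 3 (0.31 and 0.26). The receptor genes listed beside them were not called: BMPR1A was at -0.04, ACVR1B at -0.24, ACVR2B at -0.16 and ACVR2A, itself on chromosome 2, at 0.07. PPP3R1, the regulatory subunit of calcineurin, rose by 0.33 ± 0.07.

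The remaining signalling genes were not called. They were PPP1CB (0.15), a catalytic subunit of protein phosphatase 1, SOS1 (0.13), an activator of Ras, CAB39 (0.13), a scaffold of the LKB1 kinase complex, and the calmodulin gene CALM2 (0.01). SOS1 shows how uneven the libraries were: it was at 133, 95 and 84.5 CPM with TTC3 shRNA, against 95.1, 95.5 and 95.1 CPM with control shRNA. Only replicate 1 was above the controls, and the fold change without it was -0.07. With the length and GC trends removed, the libraries stood at 0.49, 0.39 and 0.25 for SOS1. Without replicate 1, PPP1CB was at 0.08 and CAB39 at 0.05.

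Chaperones and ubiquitin ligases rose in 4 of 6 cases and fell in 1 (median 0.36). HSPD1 and HSPE1 encode HSP60 and its cap HSP10, which fold proteins in mitochondria, and they are known for lying head to head with a shared promoter region. The sequences of that region are shown because both genes were called higher. They are 300-base windows around annotated starts from RefSeq (GRCh38.p14), 5′ to 3′ on each gene's own strand, at chr2:197500129-197500428 (plus strand) for HSPE1 and chr2:197499791-197500090 (minus strand) for HSPD1. In the HSPE1 window, capitals mark the 204 bases that also lie in the other HSPD1 window of the table. In the HSPD1 window, capitals mark 18 bases covered by matches, on both strands and overlapping, to a heat shock element, searched as GAA, TTC and GAA with any 2 bases between them.
HSPE1: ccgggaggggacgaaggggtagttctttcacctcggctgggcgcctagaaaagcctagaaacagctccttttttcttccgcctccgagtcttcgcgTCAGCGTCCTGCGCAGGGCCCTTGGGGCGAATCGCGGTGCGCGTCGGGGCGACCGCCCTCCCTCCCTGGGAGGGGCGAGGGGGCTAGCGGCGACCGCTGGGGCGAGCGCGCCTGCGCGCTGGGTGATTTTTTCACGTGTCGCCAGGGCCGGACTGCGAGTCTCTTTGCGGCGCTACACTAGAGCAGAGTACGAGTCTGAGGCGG
HSPD1: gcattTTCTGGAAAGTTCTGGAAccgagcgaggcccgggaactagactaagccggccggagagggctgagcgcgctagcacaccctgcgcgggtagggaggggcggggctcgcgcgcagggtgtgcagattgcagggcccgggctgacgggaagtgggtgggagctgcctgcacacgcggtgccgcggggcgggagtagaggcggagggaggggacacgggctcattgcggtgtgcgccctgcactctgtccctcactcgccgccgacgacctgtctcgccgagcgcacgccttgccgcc

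HSPD1 (chr2:197486581-197516737) was at 782, 837 and 879 CPM with TTC3 shRNA, against 496, 494 and 489 CPM with control shRNA. HSPE1 (chr2:197499994-197503457) was at 64.3, 55.7 and 58.2 CPM with TTC3 shRNA, against 41.5, 41 and 40.1 CPM with control shRNA. Neither gene's groups overlapped, and the fold changes were 0.76 ± 0.07 and 0.54 ± 0.07. With the length and GC trends removed, the TTC3 shRNA libraries stood at 0.65, 0.81 and 0.87 for HSPD1. For HSPE1 they then stood at 0.58, 0.09 and 0.08, so the pair was alike in replicate 1 only. The annotated spans of the genes overlap, and processed copies of HSPD1 exist elsewhere in the genome, so the division of reads between them is uncertain. The heat shock element was found in 0.49% of 35116 human promoter windows. The 44 of the 48 genes with a window had 90 windows between them, so a count of genes is not comparable with that share. Among these genes the element was found only in windows of HSPD1 and the export receptor gene XPO1, which was at 0.05.

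In the ubiquitin system, CUL3, the scaffold of a cullin-RING ligase, rose by 0.40 ± 0.10, and PELI1, a ligase of innate immune signalling, by 0.28 ± 0.09. The substrate adaptor of CUL3, KEAP1 on chromosome 19, rose by 0.58 ± 0.14. Of the other cullins listed, CUL4B (0.50) and CUL5 (0.25) rose, and CUL1, CUL2 and CUL4A were not called. DNAJB2, a J-domain co-chaperone, was above all controls in every TTC3 shRNA library (0.08, 0.45 and 0.41 log2) but was not called.

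Cytoskeleton and trafficking genes rose in 4 of 7 cases, and all 7 were above the median of other chromosomes (median 0.41). Of the other chromosome 2 genes at 5 CPM, 80.6% were above it. DCTN1 (chr2:74361154-74392087), the p150 subunit of dynactin, was at 188, 245 and 256 CPM with TTC3 shRNA, against 128, 130 and 131 CPM with control shRNA. It rose by 0.83 ± 0.12 and was above the controls in every library, by less in replicate 1 (0.54) than in replicates 2 and 3 (0.92 and 0.98). BIN1, which bends membranes, had the same order of libraries (0.26, 0.71 and 0.75). Their transcripts are GC-rich, at 57.8% and 62.2%, and with the length and GC trends removed the libraries stood at 0.59, 0.79 and 0.84 for DCTN1 and at 0.32, 0.28 and 0.23 for BIN1. Among 6 other dynactin genes, all outside chromosome 2, ACTR1A (0.37) and DCTN2 (0.24) rose and DCTN3, DCTN4, DCTN5 and DCTN6 were between -0.40 and 0.20 without a call.

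The ARP2/3 complex, which nucleates branched actin, has 3 subunit genes on chromosome 2. ARPC2 was at 190, 171 and 169 CPM with TTC3 shRNA and 124, 121 and 126 CPM with control shRNA. ACTR2 was at 398, 327 and 315 CPM with TTC3 shRNA and 265, 262 and 258 CPM with control shRNA. Together with ACTR3, which is not among the 48, they rose by 0.52, 0.41 and 0.43, and in replicate 1 by 0.62, 0.61 and 0.60. The 5 subunit genes elsewhere were less alike: ARPC1B (0.78) and ARPC4 (0.37) rose, while ARPC1A (0.18), ARPC3 (-0.03) and ARPC5 (-0.14) were not called. In replicate 1 those 5 lay between -0.27 and 0.31, below all 3 chromosome 2 subunits. That order did not hold in replicates 2 and 3, where ARPC1B stood at 0.90 and 1.03 and ARPC4 at 0.44 and 0.50, against 0.32 and 0.27 for ACTR2.

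**Figure D4:**
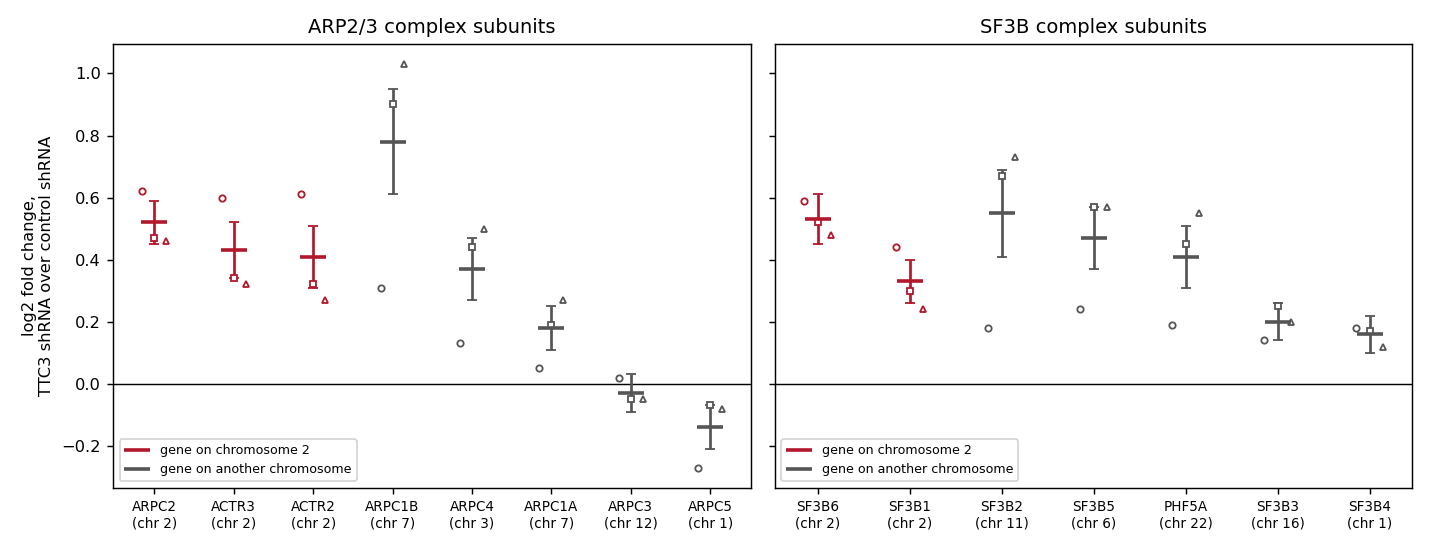
Log2 fold change of TTC3 shRNA over control shRNA for subunits of the ARP2/3 complex (left) and the SF3B splicing complex (right), chromosome 2 genes first. Bars show the fold change and its SE from all 6 libraries; open circles, squares and triangles show TTC3 shRNA replicates 1, 2 and 3 against the control mean, and in replicate 1 the chromosome 2 subunits are the highest of each complex, while in replicates 2 and 3 ARPC1B (0.90 and 1.03) and SF3B2 (0.67 and 0.73) are.

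RNA-processing genes rose in 3 of 6 cases and fell in 1 (median 0.26). SF3B1, the large subunit of a splicing complex that recognises the branch site, was at 361, 330 and 316 CPM with TTC3 shRNA, against 272, 265 and 265 CPM with control shRNA. It rose by 0.33 ± 0.07, as did SF3B6 (0.53 ± 0.08), the other subunit gene of that complex on chromosome 2. The subunits elsewhere ranged from 0.16 (SF3B4, not called) to 0.55 (SF3B2), and in replicate 1 from 0.14 to 0.24, where SF3B1 stood at 0.44 and SF3B6 at 0.59. In replicates 2 and 3 SF3B1 was at 0.30 and 0.24, below SF3B2 (0.67 and 0.73), SF3B5 (0.57 in each) and PHF5A (0.45 and 0.55). HDLBP, the RNA-binding protein vigilin, was at 821, 761 and 698 CPM with TTC3 shRNA, against 545, 552 and 556 CPM with control shRNA (0.46 ± 0.08). HNRNPA3 rose by 0.47, with its relatives HNRNPA1 (0.25) and HNRNPA2B1 (0.29), and has many processed copies that make its counts uncertain.

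Metabolic enzymes split evenly, with 3 of 6 higher and 3 lower. IDH1, the cytosolic NADP-dependent isocitrate dehydrogenase, was at 74.4, 61.5 and 58.7 CPM with TTC3 shRNA, against 39.9, 39 and 41.7 CPM with control shRNA (0.69 ± 0.10). MDH1, the cytosolic malate dehydrogenase, was at 161, 180 and 188 CPM with TTC3 shRNA, against 112, 114 and 112 CPM with control shRNA (0.65 ± 0.07). Both were higher in every TTC3 shRNA library. The mitochondrial counterparts differed: MDH2 on chromosome 7 rose by 0.54 ± 0.12, and IDH2 on chromosome 15 was at -0.15 ± 0.10. UGP2, which makes UDP-glucose, rose by 0.20 ± 0.06.

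Of the DNA repair genes, MSH6, a mismatch recognition protein, rose by 0.44 ± 0.06, while its paralog MSH3 on chromosome 5 was at -0.28 without a call. ERCC3, a translocase of the TFIIH complex, rose by 0.26 ± 0.06. The chromatin and transcription group held a single increase, that of the DNA methyltransferase DNMT3A (0.30 ± 0.09). It was at 16.7, 20.1 and 19.3 CPM with TTC3 shRNA and 14.9, 15.7 and 14.9 CPM with control shRNA. The DNMT3A call was lost with library totals alone, with no filter on low counts and with the replicate block. It was also lost without TTC3 shRNA replicate 2 or 3 and without any 1 control library. HAT1, a histone acetyltransferase (0.30), ASXL2, a polycomb-linked protein (0.28), and SP3, a GC-box binding factor (0.20), were not called. ASXL2 was 0.60, 0.16 and -0.01 log2 from the control mean in the TTC3 shRNA libraries, and at 0.10 without replicate 1. SP3 was at 171, 109 and 107 CPM with TTC3 shRNA, against 112, 114 and 112 CPM with control shRNA. Its uncorrected mean thus rested on replicate 1 (-0.04 without it). With the length and GC trends removed, the libraries stood at 0.62, 0.30 and 0.29 for SP3 and at 0.60, 0.55 and 0.44 for ASXL2. In the cell death pair, CASP8, the initiator caspase, rose by 0.25 ± 0.06, and CFLAR, its inhibitor, was at -0.00 ± 0.07. The CASP8 value is nearly the same in each library (0.23, 0.25 and 0.25), but becomes -0.11 with the length trend removed, since the transcript that sets its length here has 592 bases, and the transcripts matched to the annotation hold as little as 36.3% of the gene's count in a library.

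In all, 14 genes were above the median of other chromosomes without a call. Beside those already named these were SRSF7, a splicing factor (0.20), RAB1A, a GTPase of transport between the ER and the Golgi (0.18, and 0.04 without replicate 1), R3HDM1 (0.18), AAK1, a kinase of the endocytic adaptor (0.16), TMEM131, a membrane protein of collagen secretion (0.05), and CREB1, a cyclic AMP responsive factor (0.01). In SOS1, XPO1, SP3, TMEM131, R3HDM1 and CREB1, replicate 1 alone was above the control mean. With the length and GC trends removed, all of these were above 0 in every TTC3 shRNA library. CREB1 was then at 0.30, 0.21 and 0.32 and XPO1 at 0.32, 0.18 and 0.23. TMEM131 (0.42, 0.14 and 0.04) and R3HDM1 (0.61, 0.19 and 0.03) were close to 0 in replicate 3. R3HDM1 was at 77.4, 51 and 45.3 CPM with TTC3 shRNA, against 50.6, 51.2 and 51.3 CPM with control shRNA. The difference between the highest and lowest TTC3 shRNA library was 0.77 log2 for R3HDM1, 0.68 for SP3 and 0.67 for TMEM131. It was 0.02 for CASP8 and 0.09 for UGP2 and for PELI1. Without replicate 1, TMEM131 (-0.17) and CREB1 (-0.13) were called lower.

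The genes that escaped the upward shift were 10, of which 4 stood at or below the median of other chromosomes without a call and 6 fell. The 4 were CALM2 (0.01), the nucleoporin gene RANBP2 (-0.00), CFLAR (-0.00) and ATF2 (-0.12), a bZIP factor. In each of these 4, replicate 1 was above the control mean (0.11 to 0.26) and replicates 2 and 3 below it. Without replicate 1 the genes at or below the median of other chromosomes numbered 16, with SOS1, XPO1, SP3, R3HDM1, TMEM131 and CREB1 added, and ATF2 (-0.28) and RANBP2 (-0.14) were then called lower. RANBP2 has closely related copies on the same chromosome and CALM2 has processed copies, so the counts of both are uncertain. With the length and GC trends removed, RANBP2 was at 0.27 and CFLAR at 0.26, near the median of 0.28 that the 48 genes then had, while ATF2 was at 0.06 and CALM2 at -0.08.

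The 6 genes that fell did so in every TTC3 shRNA library, replicate 1 included. MAT2A (ENSG00000168906.13, chr2:85539165-85545280), which makes the methyl donor S-adenosylmethionine, was at 317, 279 and 282 CPM with TTC3 shRNA, against 440, 437 and 442 CPM with control shRNA. The groups were far apart, and the fold change was -0.59 ± 0.07 (SE), below the lower Tukey fence of -0.55. Its neighbours went the other way: 9 of the 10 nearest expressed genes were above the median of other chromosomes, with a median of 0.28. GGCX and VAMP8, nearest to it, rose by 0.33 and 0.35. MAT2B on chromosome 5, the regulatory subunit of the same enzyme, was at -0.03 ± 0.12.

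MGAT4A (chr2:98619106-98731126), which adds branches to N-glycans, had the largest decrease and the fewest counts of the 48. It had 27, 13 and 31 counts with TTC3 shRNA, against 131, 115 and 93 counts with control shRNA. The fold change was -2.13 ± 0.32, where counting error adds to the spread. The 10 expressed genes nearest to MGAT4A, TMEM131 among them, had a median of 0.08. The paralog MGAT4B, on chromosome 5, was at 0.52 ± 0.18 without a call.

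GALNT3 (chr2:165747591-165794682), which starts mucin-type O-glycans, was at 5.68, 4.49 and 5.13 CPM with TTC3 shRNA, against 8.63, 8.02 and 7.86 CPM with control shRNA. The groups did not overlap (-0.68 ± 0.12). Its neighbourhood did not share the shift: the 10 nearest genes had a median of -0.00, and the sodium channel gene SCN3A (-1.73) and COBLL1 (-1.27) fell. The related GALNT2, on chromosome 1, rose by 0.57 ± 0.09, and GALNT1, on chromosome 18, was at -0.15 ± 0.09.

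SP100 (chr2:230415942-230544090), a constituent of PML nuclear bodies, was at 46.2, 40.1 and 38.2 CPM with TTC3 shRNA, against 59.4, 59.4 and 58.7 CPM with control shRNA (-0.51 ± 0.08). Of the SP100-family genes beside it, SP110 fell by 0.99 and SP140L was at -0.04, and its 10 nearest genes had a median of 0.15. Among them SLC16A14 (-0.90) and ARMC9 (-0.43) also fell, and ITM2C (0.95), NCL (0.77) and PSMD1 (0.46) rose. PML, on chromosome 15, fell by 0.71 ± 0.14, where the median of chromosome 15 genes was -0.40.

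CLK1 (chr2:200853009-200864744), a kinase of SR splicing factors, was at 36, 29 and 28.1 CPM with TTC3 shRNA, against 40.7, 38.8 and 39.3 CPM with control shRNA (-0.35 ± 0.10). This call was lost with no filter on low counts, without TTC3 shRNA replicate 2 or 3 and without any 1 control library, at fold changes of -0.28 to -0.37. All 4 genes of its family fell: CLK2 on chromosome 1 by 0.78, CLK4 on chromosome 5 by 0.51 and CLK3 on chromosome 15 by 0.48. RNF103 (chr2:86603393-86623866), a ubiquitin ligase of the ER membrane, was at 15.5, 15.8 and 15.8 CPM with TTC3 shRNA, against 19.8, 21.7 and 19.7 CPM with control shRNA. That decrease, -0.38 ± 0.07, differed by only 0.03 log2 between the TTC3 shRNA libraries. The 10 nearest genes of CLK1 had a median of 0.34, and those of RNF103 a median of 0.24.

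**Figure D5:**
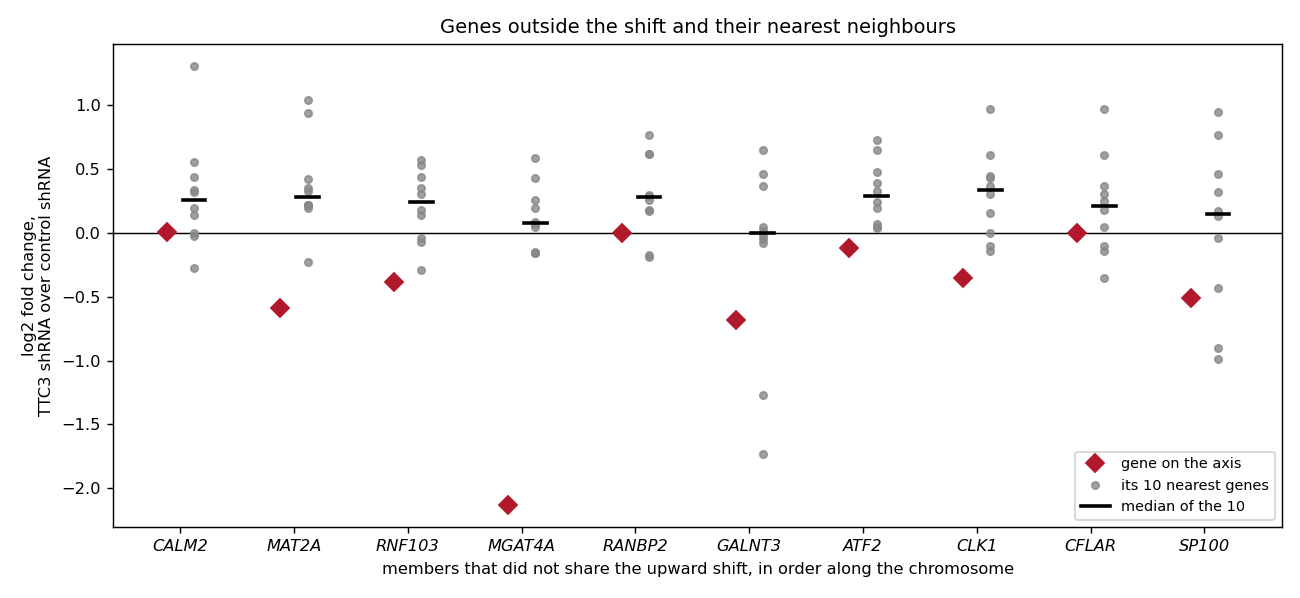
Log2 fold change of TTC3 shRNA over control shRNA for the 10 genes outside the upward shift (diamonds) and, beside each, its 10 nearest tested genes of at least 5 CPM (dots) with their median (line), in order along chromosome 2. The neighbour medians lie between -0.00 for GALNT3 and 0.34 for CLK1, and each gene is below the median of its neighbours.

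The deposited transcript counts allowed fewer calls. Of 178 tested transcripts of the 48 genes, 12 were called higher and 3 lower, where 1.39% and 2.6% of all 53805 tested transcripts were. For 44 of the 48 genes the most counted transcript had the sign of the gene, and for 40 it lay within 0.25 log2 of it. MAP4K4 had 7 transcripts called higher, with changes of 0.93 to 2.18, and both tested MAT2A transcripts fell (-0.59 and -0.77). In STK25, ENST00000401869.5 rose by 1.60 ± 0.12 and held 40.6% of the gene's count with TTC3 shRNA and 25.2% with control shRNA. In SP100, ENST00000340126.9 fell by 0.78 ± 0.14 and held 53.3% with TTC3 shRNA and 63.3% with control shRNA. Transcripts of a gene share sequence, so how counts were divided among them is an estimate.

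A list of 79 paralogs and complex partners, drawn up by membership, placed the 48 genes beside genes of like function on other chromosomes. The 71 partners outside chromosomes 2 and 15 had a median of 0.12, with 22 called higher (31%) and 5 lower (7.04%). The genes of other chromosomes at 5 CPM, with 23.6% called higher and 18.6% lower, had a median of 0.04, below that of these partners. The 5 partners on chromosome 2 had a median of 0.34, with 3 called higher and none lower. Of the other chromosome 2 genes at 5 CPM, 53.5% were called higher and 7.79% lower. The 3 partners on chromosome 15 had a median of -0.48. For the 38 genes with a partner outside chromosomes 2 and 15, the gene was above the median of its partners in 25, and the median difference was 0.16. Partners in a complex stood higher, at 0.20 over 29 genes, than paralogs, at 0.04 over 42 genes. All of these values come from the contrast that chose the 48 genes, and 36 of the 48 overlap another annotated gene (21 on the same strand), where counts are uncertain because the use of strand in counting is not stated.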

How the data were processed

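RNA-seq of PC3 cells with TTC3 shRNA (3 libraries) or control shRNA (3 libraries) was analysed, with groups and replicate numbers taken from the titles. The authors deposited estimated counts of each gene and transcript, which are whole numbers with no scaling. Per the submitters' processing notes, the tools were Trim Galore, STAR and StringTie and the build was hg38. Their versions and settings, and whether counting used strand, were not given in the sources used here.

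Counts went into edgeR 4.0.16 (R 4.3.3; filterByExpr, TMM, glmQLFit and glmQLFTest on group, Benjamini-Hochberg adjustment over 24325 genes or 53805 transcripts, threshold 0.05). The SE is the log2 fold change divided by the square root of F. Differences per library are log2 CPM with a prior count of 2. Positions and transcript lengths came from GENCODE 29, where 94% of tested genes had a position. A gene's length is that of its most counted matched transcript. Trends were fitted by lowess (span 0.5) to protein-coding genes of at least 5 CPM outside chromosomes 2 and 15. The code was tested on simulated data. Replicates differed by more than counting noise.

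The 48 genes, the partner list and the tests were chosen with earlier results of these data known. The naming rule took genes that escape the shift, genes beyond Tukey fences (1.5 interquartile ranges), and leading genes per role, the 8 highest and 8 lowest other chromosome 2 genes, and the partners, of which the text names fewer than listed; some genes are not reported here. The rule for genes that escape was worded for a downward shift and was turned round once the direction was seen. As used it was also narrower, and took only genes called lower or at or below the median of other chromosomes. The 14 genes above that median without a call, which the turned rule would also take in, are not counted as escaping. Neighbours of these genes, and the transcripts named, were chosen after their values were seen. Alternatives were other scalings and filters, DESeq2 1.42.0, a replicate block, a stricter threshold, trend removal and leaving out each library. At this depth the spread between libraries limits the precision of all but the lowest counts.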

Additional observations from a re-analysis of the deposited data

How the results depend on the processing

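The median of the 48 genes stayed above that of other chromosomes in every alternative run, by 0.24 to 0.34 log2. In these runs 32 to 41 of the 48 genes lay above it. The other scalings move all genes nearly alike, so they cannot show whether that gap is stable. Library totals alone gave 14 genes called higher, a median of 0.14 for the 48 genes, 0.18 for the other chromosome 2 genes and -0.12 for other chromosomes. An adjusted p below 0.01 gave 13 called higher. The median of other chromosomes was 0.02 with DESeq2 size factors and with the DESeq2 test, 0.01 with no filter, -0.01 with at least 50 counts in 3 libraries, and, chosen after seeing the data, 0.04 at a mean of at least 5 CPM. With the length trend removed it was -0.05, and with the length and GC trends removed (chosen after seeing the data) -0.06, and the interquartile range of the 48 genes was 0.32 in each; CASP8 then stood at -0.11 in each. With the replicate number as a block, 21 genes were called higher and 6 lower, and the median of other chromosomes was 0.00; the correlation of same-numbered libraries' deviations from their group means was 0.136, 0.123 and 0.0322, so the numbers are not taken as pairs. Leaving out 1 library at a time, 13 to 28 genes were called higher and 5 to 10 lower, the median of the 48 genes was 0.26 to 0.29, their interquartile range 0.34 to 0.51, that of other chromosome 2 genes 0.27 to 0.33, and the median of other chromosomes 0.01 to 0.02. The fewest calls came without a control library: 14, 13 and 13 called higher without control shRNA replicates 1, 2 and 3. DNMT3A, UGP2, PELI1, ERCC3, ACTR2 and BIN1 were among the genes that lost their call in each of those runs. Without TTC3 shRNA replicate 1, 10 genes were called lower, TMEM131 and CREB1 among them; over the libraries left out, TMEM131 ran from -0.17 to 0.18 and CREB1 from -0.13 to 0.11. The causes of these shifts were not tested. Depth limits MGAT4A alone among the 48 genes, at 13 to 131 counts per library.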

Other observations

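Beyond the 48 genes, single chromosome 2 genes changed by far more than the chromosome's median of 0.33. The 8 largest increases at a mean of at least 5 CPM were led by SDC1, COL6A3 and FN1. SDC1, the heparan sulphate proteoglycan syndecan-1, averaged 682 ± 72.4 CPM with TTC3 shRNA and 113 ± 0.597 CPM with control shRNA (SD, n = 3 each). Fibronectin FN1 averaged 3453.7 ± 459 and 764 ± 8.79 CPM, and the collagen VI chain COL6A3 404 ± 34.3 and 87.9 ± 2.75 CPM, in TTC3 shRNA and control shRNA cells. The receptor tyrosine kinase gene ALK (log2 fold change 2.11 ± 0.15, SE) and the homeobox gene GBX2 (2.12 ± 0.12) rose as well, with FAM110C (2.04), GAREM2 (1.73) and MZT2B (1.43).

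The 8 largest decreases were led by the cytokine gene IL1B, which averaged 4.59 ± 0.607 CPM with TTC3 shRNA and 39.5 ± 0.765 CPM with control shRNA. The growth factor gene TGFA averaged 4.98 ± 0.509 and 30.6 ± 1.41 CPM, and the hypoxia-inducible factor gene EPAS1 12.1 ± 0.556 and 40.6 ± 0.307 CPM, in TTC3 shRNA and control shRNA cells. RSAD2 (-2.61 ± 0.13) and IFIH1 (-2.48 ± 0.10), known as interferon-stimulated genes, fell, as did SCN3A (-1.73), DIRC3-AS1 (-1.64) and GRASLND (-1.63). All 16 genes were called by edgeR's quasi-likelihood test at an adjusted p below 0.05. The noncoding and antisense genes among them may share reads with genes on the other strand.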
